A study of Mus musculus with 8 samples.

Results

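The genes of collagens, laminins, nidogens, fibulins, fibrillins, elastin, fibronectin, perlecan and agrin were examined in the RPE of *Bbs8*-/- mice and their littermate controls. Members were all genes whose symbol names a chain or protein of these families and which reached 1 CPM, a count scaled to the size of its library, in 4 or more of the 8 libraries. The count tables held 69 such genes of 31053 in all, and 52 of them passed this filter among 12889 genes tested.

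RNA was taken from RPE isolated at postnatal day 29 from 4 wild type (*Bbs8*+/+) and 4 *Bbs8*-/- mice on a C57/Bl6 background, whose gender was not determined and which received no treatment. The tests measure the spread between animals, since every library came from a different mouse. Cargo is carried to and from cilia by the BBSome, of which the product of *Bbs8* is a subunit. The knockout of *Bbs8* is global and includes photoreceptors and choroidal cells, so that changes in RPE cannot be assigned to RPE alone. The comparison asks which transcripts differ in RPE of this knockout. QuantSeq reads the 3′ end of each polyadenylated transcript, so that a long and a short transcript each give 1 tag, and CPM values were scaled by TMM factors, which allow for the composition of each library, but not divided by length. Counts on genes came to 3093428, 2736947, 2495094 and 2790955 for *Bbs8*+/+ mice and 2389835, 2722440, 2415310 and 2736289 for *Bbs8*-/- mice.

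RPE cells rest on Bruch's membrane, a layered extracellular matrix between the epithelium and the choroidal capillaries. Its inner face is the basement membrane of the RPE, a sheet of type IV collagen and laminin networks joined by nidogens and heparan sulfate proteoglycans, and beneath it lie layers of fibrillar collagens and of elastic fibres built on fibrillins and fibulins. RPE, choroidal fibroblasts and endothelium all contribute chains, and mutations in several of these genes, among them *EFEMP1* and *COL8A2* in people, cause diseases of the retina or cornea.

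*Ttc8*, the mouse symbol of *Bbs8*, was at 35.5, 53.0, 58.9 and 43.1 CPM in libraries labelled *Bbs8*+/+ and at 6.16, 1.79, 5.6 and 5.24 CPM in those labelled *Bbs8*-/-. Every library labelled as a knockout was thus far below every control, with counts of the gene reduced but not at 0 in each. *Ttr*, the most abundant of 20 RPE markers, was at 20932 ± 540 CPM (SD, n = 4) in *Bbs8*+/+ and 31748 ± 1397 CPM in *Bbs8*-/- libraries. Of these markers 0 were at 0 in every library, while *Best1* had at most 5 counts in any and none in 1 *Bbs8*+/+ and 2 *Bbs8*-/- libraries. Replicate 1 of the *Bbs8*+/+ libraries stood apart from its group. Its counts differed from those of the other 3 by a chi-square per degree of freedom of 6.53 to 8.18, against 2.89 to 3.56 between those 3 and 4.23 to 5.16 between *Bbs8*-/- libraries. Values without it are given for the members called and for genes named here whose call or direction it changed.

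Matrix transcripts took up 0.445% to 0.492% of the counts in *Bbs8*+/+ libraries and 0.670% to 0.747% in *Bbs8*-/- libraries. Most of the added counts lay on 1 gene, *Col8a1*: the summed level of all members was 4902 ± 196 CPM (SD, n = 4) against 6845 ± 246 CPM, and 2978 ± 124 against 3229 ± 179 CPM without it, where the genotypes overlapped. In edgeR's quasi-likelihood test with Benjamini-Hochberg adjustment over all tested genes and a threshold of 0.05, 7 of the 52 members were higher in *Bbs8*-/- RPE (13.5%, against 5.46% of all tested genes) and 2 were lower (3.85%, against 6.80% of all tested genes). The higher genes were *Col8a1*, *Col9a3*, *Col4a3*, *Col4a4*, *Nid2*, *Agrn* and *Fbln5*, and the lower ones *Col1a1* and *Col3a1*. The median log2 fold change was 0.04 over the members and 0.02 over all tested genes, and 27 members had a positive and 25 a negative estimate. At an unadjusted p under 0.05, 10 members were higher and 5 lower, where all 12889 genes gave 1453 and 1563. Of the 11 members with a mean of at least 100 CPM, 6 passed the test (54.5%, against 40% of all 1659 tested genes at this level), and of the 41 less abundant ones, 3 did (7.32%, against 8.17% of 11230). In bulk RNA, fewer cells of a type and less RNA per cell cannot be told apart. Scaling by library size alone, without TMM factors, moved the split of calls over all genes from 704 higher and 877 lower to 1005 and 657, and under it the 7 higher members remained called while *Col1a1* and *Col3a1* were not. Without *Bbs8*+/+ replicate 1, all 9 calls were kept and *Col1a2* and *Col5a3* were added. The log2 fold changes without it were 0.88 for *Col8a1*, 0.81 for *Col9a3*, 1.02 for *Col4a3*, 0.56 for *Col4a4*, 0.66 for *Nid2*, 1.15 for *Agrn*, 0.45 for *Fbln5*, -0.40 for *Col1a1* and -0.58 for *Col3a1*.

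**Figure D1:**
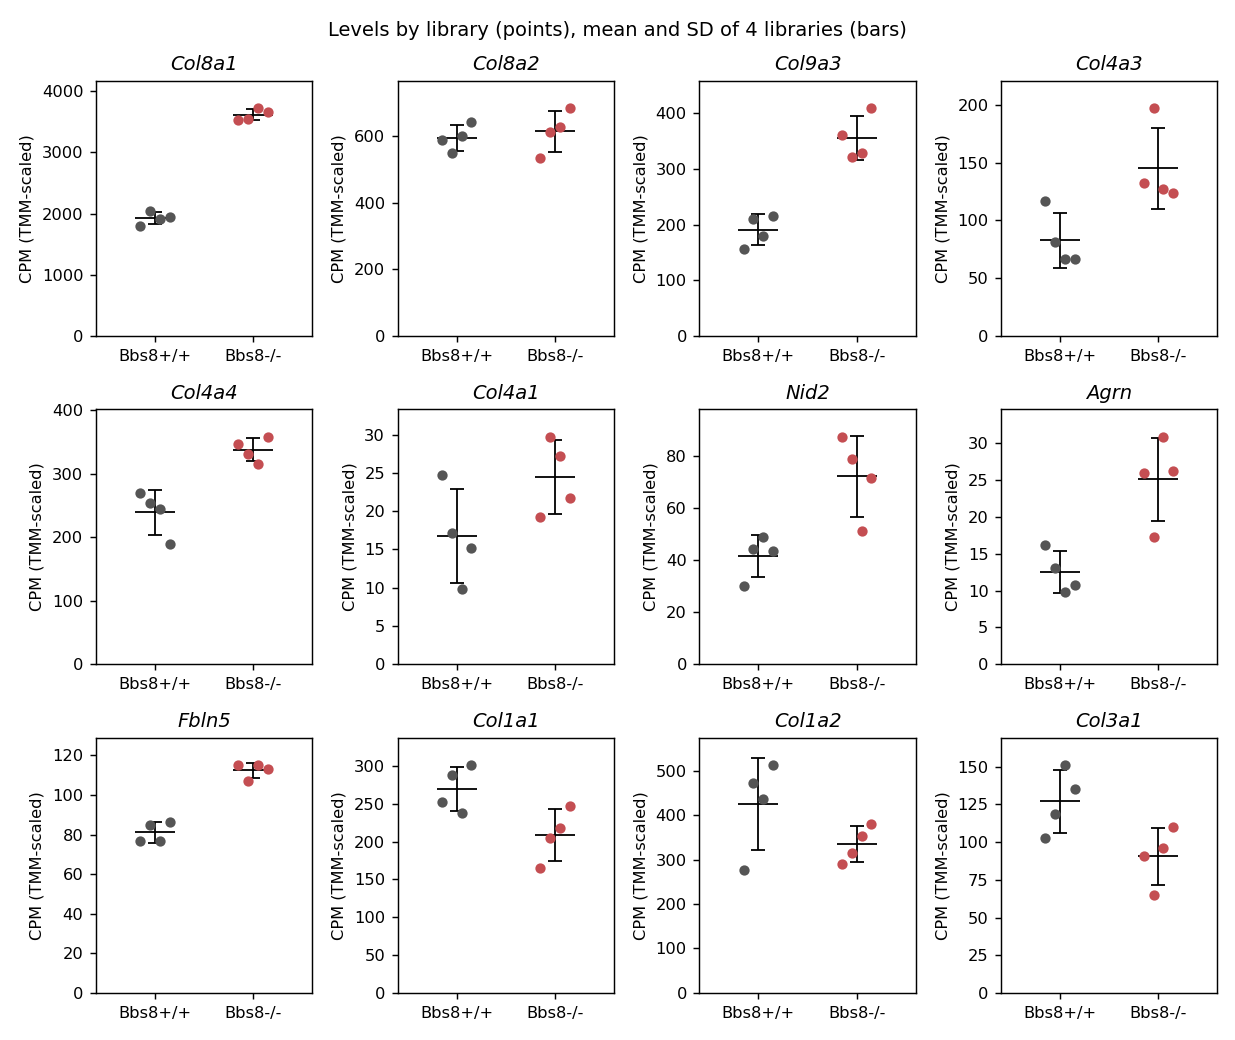
CPM of 12 matrix genes, scaled by TMM factors, in the 4 *Bbs8*+/+ (grey) and 4 *Bbs8*-/- (red) libraries, 1 point per library, with the mean and SD as bars. *Col8a1* lies between 1802 and 2035 CPM in *Bbs8*+/+ and between 3528 and 3721 CPM in *Bbs8*-/- libraries, while the groups overlap for *Col8a2*.

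Fibrillar collagens form the banded fibrils that give tissue its tensile strength. Of 10 tested, 0 were higher in *Bbs8*-/- RPE in edgeR's quasi-likelihood test and 2 were lower (20%, against 6.80% of all tested genes). Calls in either direction thus made up 20%, against 12.3% of all tested genes. Before adjustment, 1 was higher and 4 were lower at p under 0.05, and DESeq2 called 0 higher and 2 lower. Their median log2 fold change was -0.35, beside 0.02 over all tested genes.

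*Col1a1* encodes the α1 chain of type I collagen, of which each molecule holds a pair, and lies at chr11:94936224-94953042 (GRCm38, forward strand). Its level was 252, 288, 238 and 301 CPM in *Bbs8*+/+ libraries and 165, 205, 218 and 247 CPM in *Bbs8*-/- libraries. All but 1 of the *Bbs8*-/- libraries lay below the lowest *Bbs8*+/+ library, and the highest overlapped that group. On the log2 scale it fell by 0.37 (standard error 0.108), with an adjusted p of 0.0183 in edgeR's test. *Col3a1*, the homotrimeric type III collagen that co-assembles with type I in soft tissue (chr1:45311538-45349706, forward strand), was at 103, 119, 151 and 135 CPM in *Bbs8*+/+ and at 90.7, 64.9, 96.4 and 110 CPM in *Bbs8*-/- libraries. Here too 3 of the 4 *Bbs8*-/- libraries were below every control, and the log2 fold change was -0.49 (standard error 0.143, adjusted p = 0.0183 in the same edgeR test). Both calls were sensitive to single animals. *Col1a1* missed the threshold without *Bbs8*+/+ replicate 2 (log2 fold change -0.34, adjusted p = 0.0713 by edgeR), *Bbs8*+/+ replicate 4 (-0.32, 0.0991), *Bbs8*-/- replicate 1 (-0.27, 0.104) or *Bbs8*-/- replicate 2 (-0.36, 0.0517). For *Col3a1* this was so without *Bbs8*+/+ replicate 3 (-0.40, 0.0943), *Bbs8*+/+ replicate 4 (-0.46, 0.0659) or *Bbs8*-/- replicate 2 (-0.35, 0.117). With scaling by library size alone the log2 fold changes were -0.28 and -0.40 (adjusted p = 0.0956 and 0.0685 by edgeR). Over all alternatives run, adjusted p ranged from 0.00319 to 0.104 for *Col1a1* and from 0.00114 to 0.117 for *Col3a1*.

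*Col1a2*, the partner chain of *Col1a1* and the most abundant fibrillar collagen transcript, was at 276, 473, 437 and 512 CPM in *Bbs8*+/+ libraries and at 291, 314, 353 and 381 CPM in *Bbs8*-/- libraries. The low *Bbs8*+/+ value is that of replicate 1, below every *Bbs8*-/- library, and the other 3 were above all of them. With all libraries the log2 fold change of -0.34 (standard error 0.118) missed the threshold (adjusted p = 0.0531 by edgeR). Without *Bbs8*+/+ replicate 1 it was -0.50 (adjusted p = 3.82e-06 by edgeR, in a range of 3.82e-06 to 0.339 over the alternatives). The gene was called under 4 of 14 alternatives, among them no filter (-0.35, adjusted p = 0.00249 by edgeR). Another was the fit without *Bbs8*-/- replicate 4 (-0.41, adjusted p = 0.0433 by edgeR). The ratio of *Col1a1* to *Col1a2* counts was 0.913 in *Bbs8*+/+ replicate 1 and 0.545 to 0.609 in the other *Bbs8*+/+ libraries, and 0.568 to 0.654 in *Bbs8*-/- libraries. Among the remaining fibrillar genes, which nucleate or regulate fibrils or belong to cartilage and vitreous, log2 fold changes ran from -0.96 for *Col5a1* (-1.49 to -0.64 with a library left out) to 1.56 for *Col11a2* (1.16 to 2.05), the latter with 0 to 4.8 CPM, and with all libraries none of them passed the test. *Col5a3* was called without *Bbs8*+/+ replicate 1 (log2 fold change 0.96, adjusted p = 0.0481 by edgeR) or *Bbs8*-/- replicate 1 (0.90, 0.0492), and *Col5a1* without *Bbs8*-/- replicate 4 (-1.49, 0.0186).

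Type IV collagen, the network former of basement membranes, has 6 chains encoded by gene pairs that lie head to head. The chains of *Col4a1* and *Col4a2* assemble in nearly every basement membrane, those of *Col4a3*, *Col4a4* and *Col4a5* in specialised ones such as those of the glomerulus, inner ear and eye. Of the 5 genes tested, 2 were higher (40%, against 5.46% of all tested genes and 12.3% called in either direction), 0 lower and 3 did not pass the test. The median log2 fold change was 0.50, beside 0.02 over all genes, and 2 were higher and 0 lower at unadjusted p under 0.05 and by DESeq2.

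*Col4a4* (chr1:82448423-82586849, reverse strand) was at 270, 254, 244 and 189 CPM in *Bbs8*+/+ libraries and at 347, 331, 316 and 358 CPM in *Bbs8*-/- libraries. *Col4a3* (chr1:82586921-82722059, forward strand) was at 117, 81.3, 66.6 and 66.2 CPM in *Bbs8*+/+ and at 132, 197, 127 and 124 CPM in *Bbs8*-/- libraries. For both genes all 4 *Bbs8*-/- libraries were above every *Bbs8*+/+ library, by a narrow margin for *Col4a3*, whose highest control was replicate 1. The log2 fold change was 0.50 for *Col4a4* (standard error 0.0988, edgeR adjusted p = 3.33e-04) and 0.81 for *Col4a3* (standard error 0.156, adjusted p = 2.46e-04), and without *Bbs8*+/+ replicate 1 it was 0.56 and 1.02. Their ratio, *Col4a3* over *Col4a4*, overlapped between genotypes, at 0.273 to 0.433 in *Bbs8*+/+ and 0.347 to 0.595 in *Bbs8*-/- libraries.

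The annotated starts of these genes are separated by 71 bases, shown here because both genes rose. The stretch lies at chr1:82586850-82586920 and is printed on the strand of *Col4a4* from RefSeq sequence (GRCm38.p6). It was searched on both strands for the letters TATAAA of many core promoters, for CCAAT, which NF-Y binds, for GGGCGG, the site of Sp factors, for CACGTG, an E box that MITF binds, and for TAATCC, a core that OTX2 binds. Matches are in capitals in each sequence given, and this stretch held none of these motifs.
between Col4a3 and Col4a4: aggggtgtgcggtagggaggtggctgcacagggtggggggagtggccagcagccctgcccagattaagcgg

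The other pairs did not pass the test. *Col4a1* was at 24.7, 17.2, 9.81 and 15.2 CPM in *Bbs8*+/+ libraries and at 19.3, 29.7, 27.2 and 21.7 CPM in *Bbs8*-/- libraries, and *Col4a2* at 20, 12.7, 16.8 and 23.8 CPM against 15.6, 10.0, 15.2 and 24.1 CPM. The groups overlapped for both, with log2 fold changes of 0.54 (adjusted p = 0.227) and -0.17 (adjusted p = 0.800) in edgeR's test. With a library left out the log2 fold change of *Col4a1* ran from 0.35 to 0.79. The lowest was without *Bbs8*+/+ replicate 3 (adjusted p = 0.526 by edgeR) and the highest without *Bbs8*+/+ replicate 1 (adjusted p = 0.068 by edgeR). The annotated starts of *Col4a1* and *Col4a2* overlap by 22 bases. *Col4a5*, the third chain of the specialised network, was at 2.71 to 5.20 CPM in *Bbs8*+/+ and 2.87 to 6.80 CPM in *Bbs8*-/- libraries. Its log2 fold change was 0.32 (adjusted p = 0.809 by edgeR), and 0.13 to 0.50 with a library left out. The neighbouring *Col4a6* was not tested. Whether the change of *Col4a3* differed from that of *Col4a1* was not tested. The ratio of *Col4a4* to *Col4a1* counts was 10.9 to 24.8 in *Bbs8*+/+ and 11.1 to 18 in *Bbs8*-/- libraries.

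The glycoproteins and proteoglycans of basement membranes comprise the laminins, heterotrimers of an α, a β and a γ chain that bind cell receptors, the nidogens, which link laminin to type IV collagen, and the heparan sulfate carriers perlecan (*Hspg2*) and agrin. Of 11 tested, 2 were higher (18.2%, against 5.46% of all tested genes), 0 lower and 9 did not pass the test. In either direction 12.3% of all tested genes were called. At an unadjusted p under 0.05 there were 3 higher and 0 lower, and by DESeq2 2 and 0, and the median log2 fold change was 0.17, beside 0.02 over all genes.

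*Nid2* (chr14:19751265-19811787, forward strand) was at 30.1, 44.4, 49.1 and 43.5 CPM in *Bbs8*+/+ libraries and at 87.5, 78.8, 51.2 and 71.6 CPM in *Bbs8*-/- libraries. The lowest *Bbs8*-/- library was just above the highest control. Its log2 fold change was 0.80 (standard error 0.179, edgeR adjusted p = 0.00155). The 3′ end of *Nid2* overlaps that of *Rtraf* on the other strand by 437 bases, and the strand setting of the counting is not given in the sources used here. *Rtraf* was at 75 ± 14.6 and 68.6 ± 16.7 CPM (SD, n = 4). *Nid1*, the other nidogen, had 6.95 to 18.6 CPM in *Bbs8*+/+ and 5.6 to 11.1 CPM in *Bbs8*-/- libraries (log2 fold change -0.55, adjusted p = 0.411 by edgeR, and -0.29 without *Bbs8*+/+ replicate 1), and the ratio of *Nid2* to *Nid1* counts was 1.62 to 7.06 against 6.83 to 11, with overlap.

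*Agrn* (chr4:156165290-156197488, reverse strand) was at 16.2, 13.1, 9.81 and 10.8 CPM in *Bbs8*+/+ libraries and at 25.9, 17.2, 30.8 and 26.2 CPM in *Bbs8*-/- libraries. All *Bbs8*-/- libraries were above the controls, 1 of them narrowly. The log2 fold change was 0.99 (standard error 0.276, adjusted p = 0.0119 by edgeR). Without *Bbs8*-/- replicate 3 it was 0.88 and missed the threshold (adjusted p = 0.0564, the highest of a range from 0.00515 over the alternatives).

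The most abundant laminin chains were β chains. *Lamb1* was at 113, 97.3, 98.9 and 113 CPM in *Bbs8*+/+ and at 121, 107, 125 and 124 CPM in *Bbs8*-/- libraries, with overlap and a log2 fold change of 0.18 (adjusted p = 0.413 by edgeR). *Lamb2*, the β chain typical of retinal and neuromuscular basement membranes, was at 106, 83.2, 52.3 and 58.3 CPM against 59.1, 76.7, 68.4 and 65.0 CPM, the *Bbs8*-/- values lying inside the range of the controls (log2 fold change -0.16, adjusted p = 0.651 by edgeR, and 0.06 without *Bbs8*+/+ replicate 1). The other 7 genes of the group ran from a log2 fold change of -1.45 for *Lamc3* (-2.64 to -0.81 with a library left out) to 1.26 for *Lama5* (1.13 to 1.55), chosen for naming here after their values were seen, with mean levels under 20 CPM in each genotype. *Lama5*, the α chain of laminins that adult epithelia rest on, was at 2.71, 4.48, 2.04 and 2.23 CPM against 8.21, 7.88, 4.00 and 7.69 CPM, and did not pass the test (adjusted p = 0.150 by edgeR). *Hspg2* was at 11.4 ± 4.75 against 6.87 ± 2.00 CPM (SD, n = 4), with overlap.

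**Figure D2:**
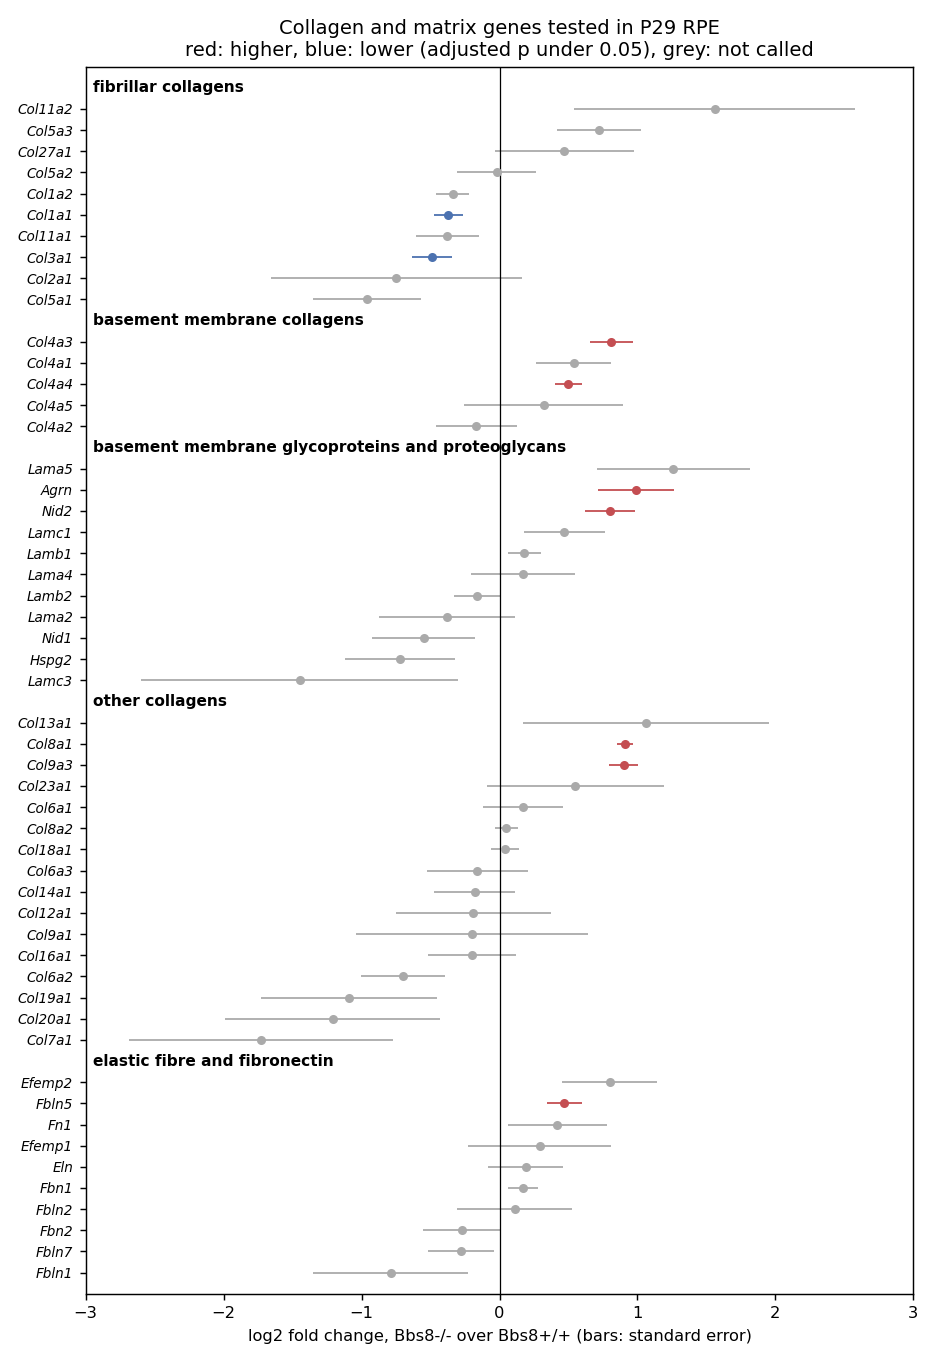
Log2 fold change of each of the 52 tested genes in *Bbs8*-/- over *Bbs8*+/+ RPE, with its standard error as the bar, by group. The 7 genes called higher (red) and the 2 called lower (blue) have standard errors of at most 0.276, and the widest bars belong to genes at few counts such as *Lamc3* and *Col11a2*.

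The other collagens comprise network formers, collagens that sit on fibril surfaces, and transmembrane and multiplexin types. Of 16 tested, 2 were higher and 0 lower in edgeR's test (12.5% called, against 12.3% of all tested genes), with 2 higher and 1 lower at unadjusted p under 0.05 and 2 and 0 by DESeq2. Their median log2 fold change was -0.17, beside 0.02 over all genes.

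*Col8a1* encodes the α1 chain of type VIII collagen, a short-chain collagen that builds hexagonal lattices in Descemet's membrane and subendothelial matrix (chr16:57624258-57754737, reverse strand). It was the most abundant member by far in CPM, and took up 38.2% to 40.5% of the counts on members in *Bbs8*+/+ and 51.3% to 53.6% in *Bbs8*-/- libraries. Its level was 1802, 2035, 1910 and 1948 CPM in *Bbs8*+/+ libraries and 3528, 3550, 3721 and 3665 CPM in *Bbs8*-/- libraries. The groups were far apart relative to their spread, at 1924 ± 96.6 and 3616 ± 92.1 CPM (SD, n = 4), a ratio of means of 1.88. The log2 fold change was between 0.88 and 1.00 under every alternative run, and the gene was called in all 14.

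*Col8a2*, the α2 chain, was at 588, 549, 600 and 642 CPM in *Bbs8*+/+ libraries and at 535, 612, 628 and 684 CPM in *Bbs8*-/- libraries. The *Bbs8*-/- values enclosed those of the controls, and the log2 fold change was 0.05 (standard error 0.0811, adjusted p = 0.796 by edgeR). The ratio of *Col8a1* to *Col8a2* counts, in which library scaling cancels, was 3.06, 3.71, 3.18 and 3.04 in *Bbs8*+/+ libraries and 6.60, 5.80, 5.92 and 5.36 in *Bbs8*-/- libraries. The genotypes did not overlap in this ratio, at 3.25 ± 0.314 and 5.92 ± 0.514 (SD, n = 4). It is given as a description, with no test.

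**Figure D3:**
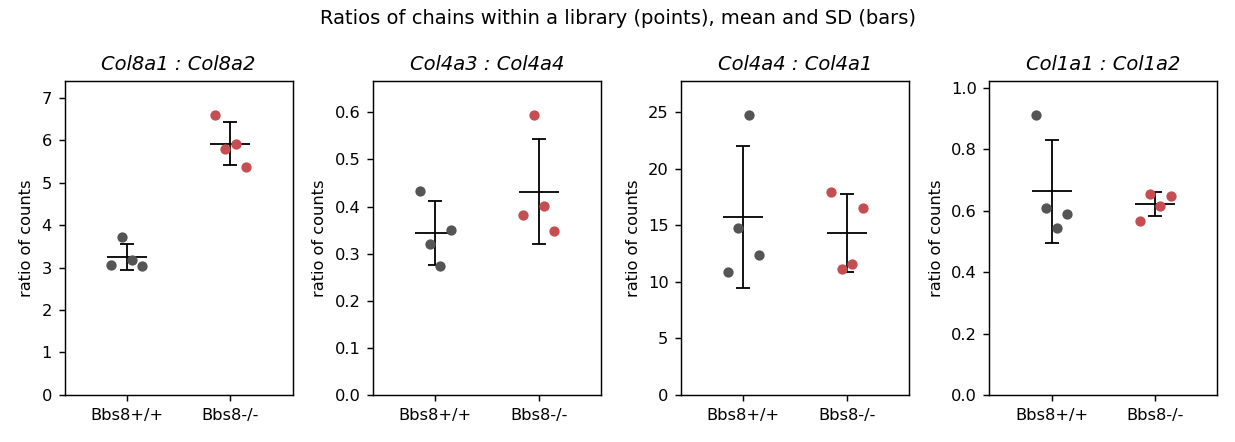
Ratio of counts between collagen chains within each library, 1 point per library, with the mean and SD as bars. The *Col8a1* to *Col8a2* ratio lies at 3.04 to 3.71 in *Bbs8*+/+ and 5.36 to 6.60 in *Bbs8*-/- libraries, and the other ratios overlap between genotypes.

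The 250 bases before the RefSeq starts of both type VIII genes and of *Col3a1*, which fell, are printed (GRCm38.p6) on the strand of each gene, to set the chain that rose beside its partner that was not called and beside a fibrillar collagen. The windows are chr16:57754738-57754987 (reverse strand), chr4:126286544-126286793 (forward strand) and chr1:45311288-45311537 (forward strand), and that of *Col8a2* ends on the start that GENCODE gives the gene. RefSeq windows were at hand for 38 of the 52 tested members. Capitals mark the motifs given above, and the share of 32851 windows of this length that hold each was 12.4% for TATAAA, 33.8% for CCAAT, 32.7% for GGGCGG, 6.02% for CACGTG and 6.25% for TAATCC.
Col8a1: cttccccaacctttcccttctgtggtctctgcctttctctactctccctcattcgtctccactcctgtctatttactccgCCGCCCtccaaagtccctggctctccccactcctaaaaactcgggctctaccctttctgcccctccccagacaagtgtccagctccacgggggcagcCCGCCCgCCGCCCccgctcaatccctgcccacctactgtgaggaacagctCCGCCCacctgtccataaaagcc
Col8a2: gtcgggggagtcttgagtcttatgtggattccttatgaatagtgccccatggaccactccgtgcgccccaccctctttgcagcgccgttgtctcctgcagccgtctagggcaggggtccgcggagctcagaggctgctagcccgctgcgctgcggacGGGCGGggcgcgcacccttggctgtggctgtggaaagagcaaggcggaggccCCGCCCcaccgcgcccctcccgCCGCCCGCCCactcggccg
Col3a1: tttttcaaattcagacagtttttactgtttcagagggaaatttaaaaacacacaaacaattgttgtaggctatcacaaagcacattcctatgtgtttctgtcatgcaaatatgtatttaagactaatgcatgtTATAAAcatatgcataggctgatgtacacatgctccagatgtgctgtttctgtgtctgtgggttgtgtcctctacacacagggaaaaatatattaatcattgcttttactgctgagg
GGGCGG or its reverse complement, neighbouring copies of which may overlap, occurred at 4 positions before *Col8a1*, at 4 before *Col8a2* and at 0 before *Col3a1*, whose window held TATAAA once. The G and C content was 60.8%, 70.0% and 35.2% in the same order. These matches describe the letters and identify no bound site.

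*Col9a3* encodes a chain of type IX collagen, a fibril-associated collagen of cartilage and vitreous that also carries a glycosaminoglycan chain (chr2:180597790-180622189, forward strand). It was at 156, 211, 180 and 216 CPM in *Bbs8*+/+ libraries and at 362, 322, 329 and 409 CPM in *Bbs8*-/- libraries. Each *Bbs8*-/- library was above each control, with means of 191 ± 27.9 and 355 ± 39.6 CPM (SD, n = 4), and the gene was called under all 14 alternatives. Its partners were near the floor: *Col9a1* was at 0.677, 5.97, 0.818 and 5.20 CPM against 0, 3.58, 2.4 and 4.89 CPM, and *Col9a2*, just outside the filter, had at most 3 counts in any library. The 3′ end of *Col9a3* overlaps by 234 bases that of *Tcfl5* on the other strand, which was at 4.47 ± 2.05 and 4.07 ± 2.71 CPM (SD, n = 4).

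*Col18a1*, named after its values were seen, encodes the basement membrane multiplexin from which endostatin is cut. It was at 205, 187, 170 and 187 CPM in *Bbs8*+/+ and at 177, 198, 198 and 195 CPM in *Bbs8*-/- libraries, which overlapped (log2 fold change 0.04, adjusted p = 0.879 by edgeR). Counting it with the basement membrane genes left 4 of them called. The remaining 12 other collagens had means under 25 CPM in each genotype, and their log2 fold changes ran from -1.73 for *Col7a1*, the anchoring fibril collagen (-2.47 to -1.31 with a library left out), to 1.06 for *Col13a1* (0.64 to 1.46). Of these, *Col6a2*, a chain of beaded microfibrils, was called without *Bbs8*-/- replicate 1 (log2 fold change -1.12, adjusted p = 0.0132 by edgeR). *Col7a1* was at 3.05, 2.24, 3.68 and 2.97 CPM against 0.821, 0.717, 2.00 and 0 CPM, without overlap but with an adjusted p of 0.285 by edgeR.

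Elastic fibre genes and fibronectin came last by role. Fibrillins form the microfibril scaffold, elastin the core, and fibulins and EFEMP proteins link and guide its deposition. All 10 of them passed the filter, of which 1 was higher, 0 were lower and 9 did not pass the test (10% called, against 12.3% of all tested genes), with 2 higher and 0 lower at unadjusted p under 0.05, 1 and 0 by DESeq2, and a median of 0.18 on the log2 scale, beside 0.02 over all genes. *Fbln5*, which tethers elastin to microfibrils and to integrins (chr12:101746565-101819055, reverse strand), was at 76.5, 84.7, 76.9 and 86.2 CPM in *Bbs8*+/+ libraries and at 115, 107, 115 and 113 CPM in *Bbs8*-/- libraries. All *Bbs8*-/- libraries were above the controls, and the spread within each genotype was small. The log2 fold change was 0.47 (standard error 0.125, adjusted p = 0.00778 by edgeR), and it was called under all 14 alternatives. *Fbn1*, the most abundant of the group, was at 158, 132, 147 and 144 CPM against 184, 171, 153 and 149 CPM, with overlap (log2 fold change 0.17, adjusted p = 0.371 by edgeR). *Fbln7*, an adhesion fibulin, was at 25.4 ± 5.41 and 20.8 ± 1.39 CPM (SD, n = 4; log2 fold change -0.28). *Eln* itself was at 18 ± 2.67 and 20.5 ± 6.34 CPM, and *Fn1*, which RPE and fibroblasts lay down as an early matrix, at 10.8 ± 5.32 and 14.4 ± 3.66 CPM, both with overlap. *Efemp1*, the gene mutated in Malattia Leventinese, was at 4.98 ± 2.28 and 6.15 ± 2.54 CPM, also with overlap. The remaining 4 genes had means under 20 CPM in each genotype.

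Of the 17 members not tested, 4 had no count in any library (*Col24a1*, *Lamb3*, *Col6a4* and *Col22a1*), and the highest count of any was 10. Just inside the filter was *Lamc3*, at 1 CPM in 3 *Bbs8*+/+ libraries and 1 *Bbs8*-/- library. Just outside it, at 1 CPM in 3 libraries, were *Col26a1* (3 *Bbs8*+/+ libraries, 0 *Bbs8*-/- libraries), *Col9a2* (0 and 3) and *Col6a6* (1 and 2). No tested member, that is 0 of 52, passed through libraries of 1 genotype alone. A gene at 3 counts in a library, the smallest signal taken as detected, is at 1.02 to 1.23 CPM. This limit holds for counting error alone, as reads carry no molecular identifiers, and differences among the 13 tested members with means under 5 CPM were not detectable unless large.

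Before they join the matrix, collagen chains are hydroxylated and folded in the endoplasmic reticulum, cut at their propeptides and crosslinked. Of 17 tested genes of modification and secretion, 0 were called in edgeR's test (against 12.3% of all tested genes), with 2 higher and 1 lower at unadjusted p under 0.05 and 0 by DESeq2, and the median log2 fold change was 0.03, beside 0.02 over all genes. *P4hb*, a subunit of prolyl 4-hydroxylase and the most abundant of them, was at 138, 140, 140 and 152 CPM in *Bbs8*+/+ libraries and 147, 112, 136 and 149 CPM in *Bbs8*-/- libraries. The groups overlapped, with a log2 fold change of -0.07 that became 0.02 with scaling by library size alone.

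Among 12 tested genes of propeptide cleavage and crosslinking, 2 were higher and 0 lower (16.7% called, against 12.3% of all tested genes; 3 and 0 at unadjusted p under 0.05, 2 and 0 by DESeq2), with a median of 0.21, beside 0.02 over all genes. Both encode enhancers that bind procollagen and speed removal of its C-propeptide. *Pcolce* was at 174, 160, 169 and 175 CPM in *Bbs8*+/+ libraries and at 592, 564, 588 and 588 CPM in *Bbs8*-/- libraries. All *Bbs8*-/- libraries were well above the controls, and the rise on the log2 scale was 1.78 (standard error 0.0852, edgeR adjusted p = 4.88e-19). *Pcolce2* was at 68.7, 40.3, 49.9 and 46.1 CPM against 98.1, 74.5, 79.2 and 92.9 CPM, again without overlap (log2 fold change 0.75, standard error 0.162, adjusted p = 0.00104 by edgeR). The fibrillar procollagens on which these enhancers are best known to act are those of *Col1a1*, *Col1a2* and *Col3a1*, given above.

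Of 22 tested integrins and other matrix receptors, 1 was higher and 0 lower (4.55% called, against 12.3% of all tested genes; 4 and 2 at unadjusted p under 0.05, 1 and 1 by DESeq2), with a median of 0.19, beside 0.02 over all genes. *Itgb8*, the β chain of the αvβ8 integrin that binds latent TGF-β, was the most abundant, at 724, 767, 813 and 699 CPM in *Bbs8*+/+ and 995, 953, 933 and 969 CPM in *Bbs8*-/- libraries. It did not overlap between genotypes (log2 fold change 0.36, standard error 0.0710, adjusted p = 3.34e-04 by edgeR). *Itgav*, the gene of the αv chain, was at 212, 198, 191 and 181 CPM against 173, 167, 163 and 175 CPM. It was thus lower in each *Bbs8*-/- library but not called (log2 fold change -0.20, adjusted p = 0.213 by edgeR). Among 10 tested microfibril and elastic fibre partners, *Fbln5*, also a member, was the only one of the list called in edgeR's test (10%, against 12.3% of all tested genes), and 1 was called by DESeq2, with a median of 0.08.

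The list of small leucine-rich proteoglycans, which coat collagen fibrils, and matricellular proteins had 15 tested genes, of which 1 was higher and 2 were lower (20% called, against 12.3% of all tested genes, and a median of -0.08, beside 0.02). *Thbs1*, thrombospondin 1, was at 118, 155, 177 and 161 CPM in *Bbs8*+/+ and at 456, 369, 380 and 368 CPM in *Bbs8*-/- libraries. *Vtn*, vitronectin, an adhesive protein also made by photoreceptors, was at 339, 450, 462 and 419 CPM against 152, 179, 165 and 164 CPM. Neither overlapped, with log2 fold changes of 1.36 (adjusted p = 1.21e-12 by edgeR, standard error 0.107) and -1.34 (adjusted p = 2.66e-13, standard error 0.0996). *Bgn*, biglycan, was at 105, 99.2, 93.2 and 100 CPM against 53.0, 64.1, 77.6 and 84.2 CPM, all *Bbs8*-/- libraries being below the controls. Its log2 fold change was -0.51 (standard error 0.143, adjusted p = 0.0128 by edgeR), and without *Bbs8*-/- replicate 1 it was -0.40 (adjusted p = 0.0644, the highest over the alternatives, from 0.00529). *Sparc*, the collagen chaperone and most abundant gene of the list, was at 702 ± 76.1 and 739 ± 17.6 CPM (SD, n = 4), with overlap. Its log2 fold change was 0.07, and 0.03 to 0.14 with a library left out.

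**Figure D4:**
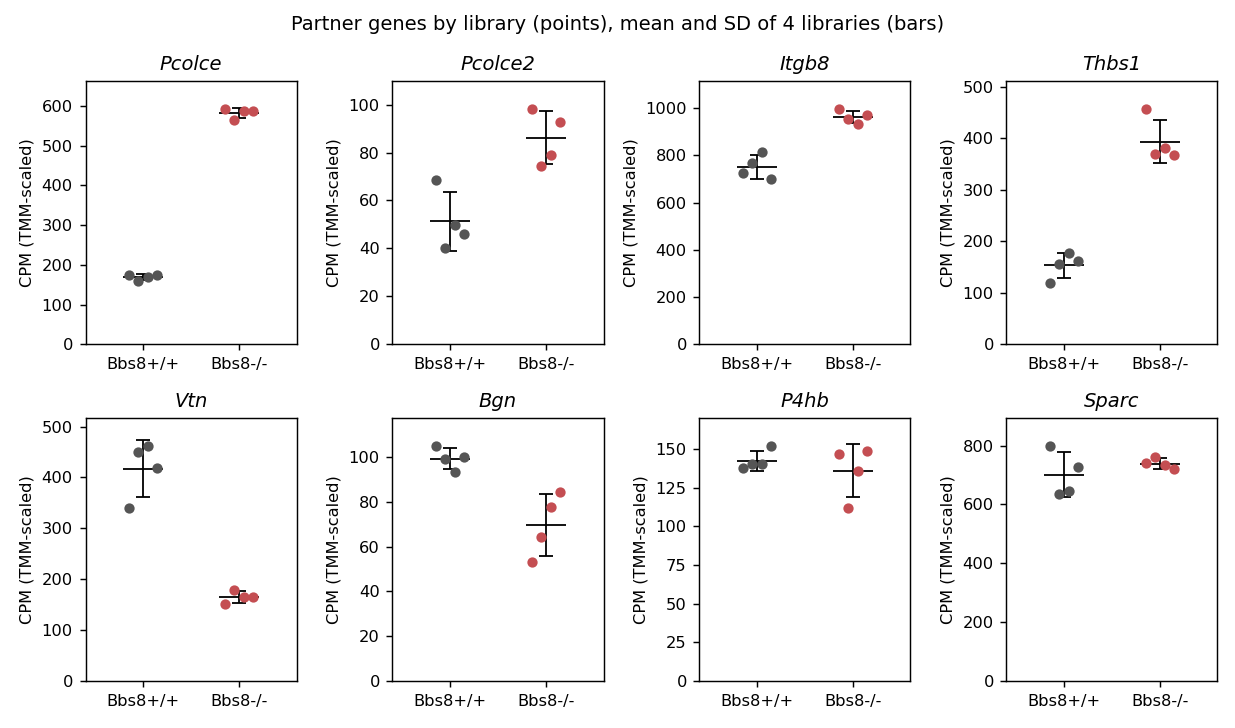
CPM of 8 genes that process, bind or organise collagens, scaled by TMM factors, 1 point per library, with the mean and SD as bars. *Pcolce* lies at 160 to 175 CPM in *Bbs8*+/+ and at 564 to 592 CPM in *Bbs8*-/- libraries, and *Vtn* is lower in each *Bbs8*-/- library.

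Matrix genes are made by several cell types, so summed levels of marker lists are given beside them. Counts of called genes in these lists stand beside 5.46% of all tested genes called higher and 6.80% called lower by edgeR, shares at which a list of 10 genes may hold 0 calls without bearing on its cell type. The fibroblast list, most abundant in *Dcn*, summed to 680, 749, 755 and 759 CPM in *Bbs8*+/+ and 716, 679, 730 and 671 CPM in *Bbs8*-/- libraries. Of its 11 tested genes 0 were called by edgeR, with 0 higher and 2 lower at unadjusted p under 0.05 and 0 by DESeq2, and 2 of its genes are also in another list. *Dcn* itself was at 408 ± 26.1 and 407 ± 20.8 CPM (SD, n = 4). Without it the list summed to 327 ± 11.2 CPM in *Bbs8*+/+ and 292 ± 19.4 CPM in *Bbs8*-/- libraries, lower on average and with overlap. Of 10 tested endothelial genes, 0 were called by edgeR, 0 had an unadjusted p under 0.05 and 0 were called by DESeq2, with sums of 43.7 to 52.2 CPM against 50.1 to 57.3 CPM, *Kdr* the most abundant and *Erg* at 0 in every library. For pericytes and smooth muscle, led by *Rgs5*, these counts were 0 of 10, 0 and 0, with sums of 169 to 206 CPM against 148 to 203 CPM. For melanocytes and Schwann cells, led by *Sox10*, 0 of 8 were called, 1 was higher at unadjusted p under 0.05 and 0 by DESeq2, with 274 to 334 CPM against 287 to 346 CPM.

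Other lists moved with genotype, except that of ciliary epithelium. Photoreceptor genes summed to 66805, 62686, 63811 and 65813 CPM in *Bbs8*+/+ and 27090, 26628, 26388 and 26847 CPM in *Bbs8*-/- libraries, with 15 of 20 lower and 3 higher. Lens genes, led by *Crygb*, summed to 3383 to 3618 CPM against 467 to 522 CPM, with 17 of 17 tested genes lower by edgeR and 16 by DESeq2, and *Foxe3* at 0 in every library. Of the 17, *Gja3* passed the filter through *Bbs8*+/+ libraries only, so that its direction was fixed by the filter. Erythrocyte genes, led by *Hbb-bs*, summed to 5210 to 5759 CPM against 2041 to 2288 CPM, with 5 of 8 lower. Müller and reactive glia genes, led by *Glul*, summed to 2755 to 3035 CPM against 4081 to 4323 CPM, with 6 of 13 higher and 0 lower. Mean levels were 1199 and 1709 CPM for *Glul*, 7.06 and 423 CPM for *Serpina3n*, 3.02 and 182 CPM for *C4b*, and 1056 and 1020 CPM for *Car14*, which was not called. The sum thus mixes genes of stressed glia with others, and the amount of Müller glia RNA was not tested. Ocular surface genes, led by *Dsp*, summed to 78.1 to 135 CPM against 198 to 242 CPM, and *Krt12* was at 0 in every library. Of their 7 tested genes, 4 (*Krt5*, *Krt14*, *Krt15* and *Krt4*) passed the filter through *Bbs8*-/- libraries only, so that nothing is read from the number of calls in this list. Ciliary epithelium genes summed to 7.83 to 13.1 CPM against 10.7 to 14.4 CPM, with overlap. They had 1 tested gene, *Otx1*, which was not called (adjusted p = 0.420 by edgeR), and *Zic2* was at 0 in every library. RPE genes, led by *Ttr*, summed to 44008 to 45177 CPM against 52676 to 56732 CPM, with 6 of 20 higher and 5 lower. This rise lay on *Ttr*: without it the sums were 23510 to 24172 CPM against 22731 to 23510 CPM. The part of these shifts in the levels of *Col8a1*, *Col9a3*, *Col4a3*, *Col4a4*, *Nid2*, *Agrn*, *Fbln5*, *Col1a1*, *Col3a1* and the partner genes was not tested. With photoreceptor, lens and erythrocyte genes left out of the TMM factors, the same 9 members were called.

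**Figure D5:**
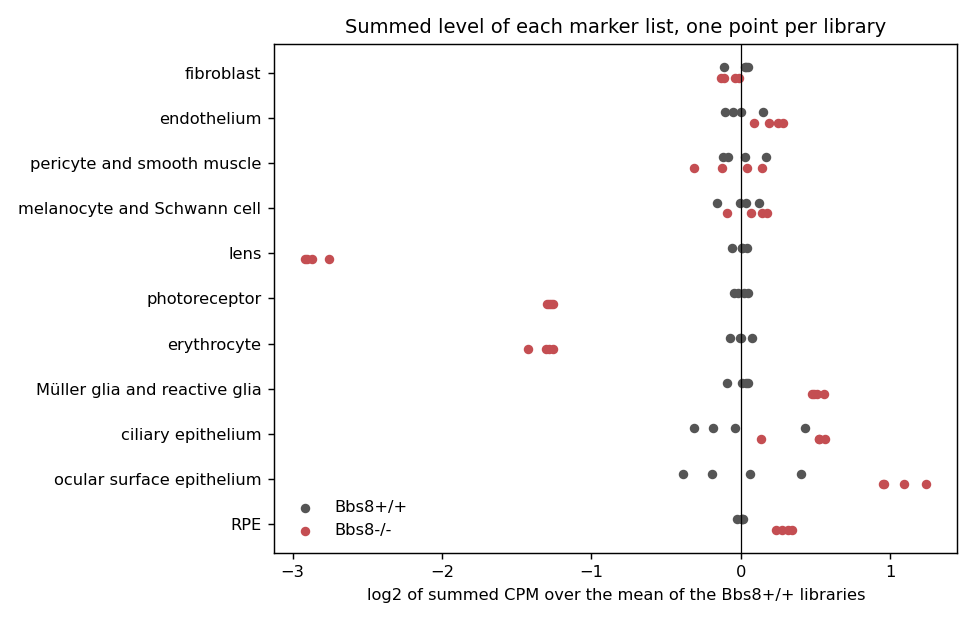
Summed CPM of each marker list in each library, as log2 over the mean of the *Bbs8*+/+ libraries (grey: *Bbs8*+/+, red: *Bbs8*-/-). Lens, photoreceptor and erythrocyte lists are lower in every *Bbs8*-/- library, glial and ocular surface lists are higher, the RPE list is higher through *Ttr*, and the fibroblast list overlaps.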

How the data were processed

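RNA of RPE isolated at postnatal day 29 from 4 *Bbs8*+/+ and 4 *Bbs8*-/- mice was sequenced with the QuantSeq 3′ method. The authors trimmed the reads, aligned them with STAR to mm10 (named in the submitters' processing notes) and used htseq-count to count reads with a unique place on each gene, and the deposited values are these counts, not normalized. The strand setting is not given in the sources used here. Rows that name no gene were left out of library sizes: reads on no gene made up 17.0% to 20.6% of a library and reads not mapped uniquely 32.8% to 34.5%.

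Symbols and positions came from GENCODE M21 (GRCm38), which named 30934 of 31053 identifiers. Genes at 1 CPM or more in 4 or more of 8 libraries were tested with edgeR 4.0.16 (R 4.3.3): TMM scaling, quasi-likelihood F test, two-sided, Benjamini-Hochberg adjustment over all 12889 genes, threshold 0.05. Printed CPM values are TMM-scaled, while the filter used CPM by library size without these factors. On simulated data the test found part of the changed genes, and fewer at the smaller of the fold changes set, so that genes that did not pass the test may still differ. The genes changed there were drawn only from those above a minimum mean count, so that the simulation does not describe members at few counts. Marker sums and chain ratios had no test. Genes named were *Ttc8*, members called, the 3 most abundant of each group, their partner chains, members at the edge of the filter, in each pathway list the most abundant gene and up to 4 called, and the most abundant of each marker list. *Col18a1*, *Hspg2*, *Nid1*, *Lama5*, *Eln*, *Fn1*, *Efemp1*, *Col7a1*, *Col13a1*, *Col6a2*, *Col5a1*, *Col5a3* and *Col11a2* were named outside this rule after their values were seen, and the alternatives were counted for them too. *Best1*, *Itgav*, *Serpina3n*, *C4b*, *Car14*, *Gja3*, *Rtraf*, *Tcfl5*, *Krt5*, *Krt14*, *Krt15*, *Krt4* and genes not tested were also named outside it and are not in that count. The result for 1 gene that this rule covers is not reported here. The 5 pathway lists and 11 marker lists, and the members, were chosen with earlier results of these data known. Alternatives were DESeq2 1.42.0, scaling by library size, other filters, TMM without photoreceptor, lens and erythrocyte genes, the replicate number as a block, each library left out, an adjusted p of 0.01, and collagens XV and XVIII counted with basement membrane genes.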

Additional observations from a re-analysis of the deposited data

Results flagged for a closer look

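Among the 4 libraries of a genotype, 1 value lay far from the other 3 in 7 of 106 groups of values checked, and chance flags about 1 in 20 groups. *Col4a3* was at 197 CPM in *Bbs8*-/- replicate 2, against 124 to 132 CPM in the other *Bbs8*-/- libraries, and without it the gene remained called. *P4hb* was at 152 CPM in *Bbs8*+/+ replicate 4, against 138 to 140 CPM in the others. *Pcolce* was at 564 CPM in *Bbs8*-/- replicate 2, below 588 to 592 CPM, *Thbs1* at 456 CPM in *Bbs8*-/- replicate 1, above 368 to 380 CPM, and *Col18a1* at 177 CPM in *Bbs8*-/- replicate 1, below 195 to 198 CPM. *Lama5* was at 4 CPM in *Bbs8*-/- replicate 3, below 7.69 to 8.21 CPM, and *Col6a2* at 23.8 CPM in *Bbs8*-/- replicate 1, above 8.8 to 11.1 CPM. Without the latter *Col6a2* was called lower. Outside the gene counts, reads that fell on no annotated gene made up 20.2% of the reads on average in *Bbs8*-/- libraries, above the 17.0% to 18.4% of the *Bbs8*+/+ libraries, and their part in the gene levels was not tested.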

How the results depend on the processing

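Of 737 results with an adjusted p for single named genes under an alternative, 694 kept their direction and their side of the threshold. *Col8a1*, *Col9a3*, *Col4a3*, *Col4a4*, *Nid2* and *Fbln5* were called under all 14 alternatives. Of the others, 16 lost the call in the same direction (*Col1a1*, *Col3a1*, *Agrn*, *Bgn* and *Dsp*), 8 gained it (*Col1a2*, *Col5a1*, *Col5a3* and *Col6a2*) and 19 changed direction without a call. The counts of all genes at an adjusted p of 0.01 were 394 higher and 571 lower. Members called lower numbered 0 with scaling by library size, 0 at an adjusted p of 0.01 and 0 to 4 with a library left out, and the fibrillar collagens called likewise 0, 0 and 0 to 4, in place of 2. The stricter threshold lowers counts by construction, and for the other changes the cause was not tested. With scaling by library size the log2 fold change of *P4hb* became 0.02 and that of *Dcn* 0.09 from -0.00, and *Dcn* was 0.00 with DESeq2 and 0.01 with the edgeR filter by expression. With a library left out, the ranges were -0.30 to 0.06 for *Lamb2*, -0.01 to 0.11 for *Col8a2*, -0.43 to 0.00 for *Col4a2*, -0.64 to 0.29 for *Col9a1*, -0.12 to 0.01 for *P4hb*, -0.05 to 0.02 for *Dcn*, -0.01 to 0.08 for *Col18a1* and -0.00 to 0.58 for *Efemp1*. Deviations from the genotype mean correlated at -0.0285 to 0.00859 between libraries of equal replicate number and at -0.0194 to 0.0295 between those of unequal number. Whether equal numbers share a litter is not given in the sources used here. Correlations over all tested genes, many at few counts, cannot decide it. With the replicate number as a block, 650 genes were higher and 827 lower, the 9 members remained called and *Col1a2* was added (log2 fold change -0.31, adjusted p = 0.0279 by edgeR). *Lamc3*, *Col7a1*, *Col13a1* and *Col11a2* had no value with the edgeR filter by expression, and *Lamc3* no adjusted p with DESeq2. Depth limits the members under 5 CPM, and 4 animals per genotype limit all tests. The paper's RPE isolation removed cornea, lens and retina and took RPE sheets off the choroid. Its section on RNA extraction instead starts from eyecups without cornea, lens, retina and optic nerve, from which no sheets were peeled. The paper calls the sequenced specimens RPE but does not say which preparation gave their RNA, so that choroid may be included. Cells that still adhered were not separated from RPE, RNA says nothing of deposited protein, and 1 age was examined.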
